A study of Homo sapiens with 18 samples.

Results

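A set of 9 genes of the class I antigen presentation pathway, called members from here on, was followed through the 18 RNA libraries of the series: HLA-B, HLA-C, HLA-E, B2M, TAP1, TAP2, TAPBP, ERAP1 and ERAP2. They were found in the count table by gene symbol, as 9 of its 57736 genes, and all 9 were among the 17317 genes that passed the filter on low counts. All libraries are labelled A1847, a human high-grade serous ovarian cancer line that expresses the arginine methyltransferase CARM1. Control cells, labelled WT for both CARM1 and XBP1, were compared with CARM1 knockout cells (koCARM1, XBP1 wild type) and with XBP1 knockdown cells (shXBP1, CARM1 wild type). Each genotype was treated with vehicle (ctr) or with tunicamycin (TM, 5 µg/ml for 8 h), an inhibitor of N-linked glycosylation that causes endoplasmic reticulum (ER) stress, with 3 replicates per group in 6 groups. Knockout vectors were delivered by lentivirus with drug selection in the study. Whether the knockout cells were 1 clone or a pool, and whether the WT cells carried a control vector, is not given in the sources used here. Nor do the labels say that replicates were separate cultures, so the p-values measure the spread between these libraries, which may be technical.

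Class I molecules show peptides from inside the cell to CD8 T cells. The proteasome cuts proteins into peptides, the TAP1 and TAP2 transporter pumps them into the ER, the aminopeptidases ERAP1 and ERAP2 trim them, and tapasin (the product of TAPBP) holds empty heavy chains at the transporter until a peptide is bound. The heavy chains, HLA-B, HLA-C and the less variable HLA-E, are glycoproteins that need β2-microglobulin (B2M) to fold, and the general ER chaperones calnexin (CANX), calreticulin (CALR) and PDIA3 take part. Interferons raise these genes together through IRF1 and NLRC5, and loss of class I is a common way for tumours to escape T cells.

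The genes for the heavy chains, the transporter and tapasin lie in the major histocompatibility complex (MHC) region of chromosome 6, and the others lie elsewhere. On GRCh37, the build of the count table, HLA-E (ENSG00000204592) is at chr6:30457286-30461971 on the plus strand. HLA-C (ENSG00000204525) is at chr6:31236526-31239907, HLA-B (ENSG00000234745) at chr6:31321649-31334844, TAP2 (ENSG00000204267) at chr6:32789610-32806516, TAP1 (ENSG00000168394) at chr6:32812986-32821593 and TAPBP (ENSG00000231925) at chr6:33267471-33282061, all on the minus strand. ERAP1 (ENSG00000164307, minus strand, chr5:96096514-96143803) and ERAP2 (ENSG00000164308, plus strand, chr5:96211690-96255407) are neighbours on chromosome 5, and B2M (ENSG00000166710, plus strand) is at chr15:45003556-45011049. TAP1 starts 488 bases from PSMB9, an immunoproteasome subunit gene that is read in the other direction.

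The promoters of 8 members (all but HLA-E) were in the RefSeq table for GRCh38.p14, and each was located by exact match on GRCh37. The letters AANNGAAA, the core that interferon regulatory factors recognise, were searched on both strands from 250 bases before to 50 bases after each start site, a choice made with these sequences in view. They were found for 8 of 8 members, some of which have more than 1 start site, while 22.8% of the 35116 promoters of this length held them. That share is per promoter, whereas the 8 members had 11 promoters and a member counted if any of its own matched. The other TAP1 promoter, farther from PSMB9 than the one given below, and the upstream ERAP2 promoter held no match. The 150 bases before the start site are given for the 4 genes whose levels carry the results on the loading complex and its light chain, with matches on either strand in capitals. Each held 2 matches, beginning 134 and 128 bases before the start site for TAP1, 142 and 136 for B2M, 62 and 56 for TAP2, and 18 and 12 for TAPBP. A match is a description of the letters and not a bound site.
TAP1 promoter, chr6:32821482-32821631, minus strand: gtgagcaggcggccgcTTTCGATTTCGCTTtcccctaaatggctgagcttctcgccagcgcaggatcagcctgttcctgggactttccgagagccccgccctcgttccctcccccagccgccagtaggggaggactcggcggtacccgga
TAP2 promoter, chr6:32806517-32806666, minus strand: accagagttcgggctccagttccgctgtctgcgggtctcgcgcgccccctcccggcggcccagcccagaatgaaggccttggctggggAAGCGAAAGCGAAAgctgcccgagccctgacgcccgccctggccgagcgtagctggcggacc
TAPBP promoter, chr6:33281856-33282005, minus strand: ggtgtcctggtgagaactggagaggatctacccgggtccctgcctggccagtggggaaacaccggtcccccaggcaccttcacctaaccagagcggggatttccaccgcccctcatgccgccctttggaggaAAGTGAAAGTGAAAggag
B2M promoter, chr15:45003565-45003714, plus strand: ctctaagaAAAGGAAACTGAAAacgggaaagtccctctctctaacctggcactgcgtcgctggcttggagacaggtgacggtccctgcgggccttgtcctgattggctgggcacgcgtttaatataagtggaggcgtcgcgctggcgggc

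The heavy chain genes HLA-B and HLA-C are shown because they changed in opposite directions in the knockout cells. Here the capitals mark CCAAT on either strand, the letters bound by the NF-Y factor. In the full windows of 300 bases, 34.6% of promoters and 5 of the 8 members held these letters. Both stretches of 150 bases given below held 3 such matches, the nearest beginning 56 bases before the start site. The letters ACGTCA, the core of the XBP1s motif, were in 7.98% of promoters and in 0 of the 8 members, which says only that they are not in these windows.
HLA-B promoter, chr6:31324957-31325106, minus strand: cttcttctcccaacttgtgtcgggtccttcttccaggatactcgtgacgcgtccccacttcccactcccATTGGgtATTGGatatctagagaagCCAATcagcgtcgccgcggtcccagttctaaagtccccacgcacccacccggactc
HLA-C promoter, chr6:31239870-31240019, minus strand: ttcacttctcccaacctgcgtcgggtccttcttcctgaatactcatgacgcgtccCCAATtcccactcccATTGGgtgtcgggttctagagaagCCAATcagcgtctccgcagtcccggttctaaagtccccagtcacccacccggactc

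Library totals ranged from 9367462 to 13917212 counts. The 6 libraries labelled koCARM1 stood apart from all others: their log2 levels over the tested genes correlated at 0.73 to 0.775 with the other libraries, against 0.961 to 0.987 between the remaining groups and 0.986 to 0.989 within groups. CARM1 itself was lowered and not lost in them, with 625 to 946 counts against 1597 to 2389 in the WT libraries. XBP1 fell in the knockdown cells by 0.86 on the log2 scale under vehicle (adjusted p = 2.54e-05 by edgeR's quasi-likelihood test) and by 1.07 under tunicamycin (adjusted p = 5.43e-09). Of the 8 markers of Müllerian epithelial carcinoma, PAX8, WT1, MUC16 and MSLN had at most 3 counts in every WT and shXBP1 library, whereas PAX8 had 465 to 840 counts in the knockout libraries and KRT19 had 0. In the knockout libraries MSLN had 61 to 153 counts and WT1 3 to 13, while MUC16 had 0 there too. The summed level of the list was 2280 to 2350 CPM in koCARM1.ctr and 311 to 332 in WT.ctr, of which KRT18 and KRT8 gave most. That of the 4 fibroblast markers was 462 to 501 CPM against 19.3 to 22.4, of which COL1A1 gave most. Of the other fibroblast markers, DCN and LUM had at most 3 counts in every knockout library. PDGFRB had 42 to 80 counts in koCARM1.ctr, against 54 to 72 in WT.ctr. The 6 immune cell markers summed to at most 2.25 CPM in every library. Whether the libraries labelled koCARM1 differ from the others in more than CARM1, the origin of the cells included, was not tested. In each comparison of knockout with WT cells, the knockout and any such difference cannot be told apart. Every knockout comparison rests on these libraries, so that none can be given without them.

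Levels are given as CPM, the counts of a gene brought to the same total in each library with TMM factors, and differences as log2 fold changes with a standard error (SE). Only the 3′ ends of the mRNA were sequenced, so CPM counts transcripts without regard to length and is compared between groups for 1 gene at a time. Ranges of 3 libraries against 3 often separate by themselves here: they did not overlap for 49.8%, 48.4% and 47.4% of all tested genes with tunicamycin in WT, knockout and knockdown cells, for 75.9% and 77.1% between knockout and WT cells under vehicle and tunicamycin, and for 23.6% and 31.5% between knockdown and WT cells. In bulk RNA, fewer cells expressing a gene and less RNA per cell cannot be told apart.

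**Figure D1:**
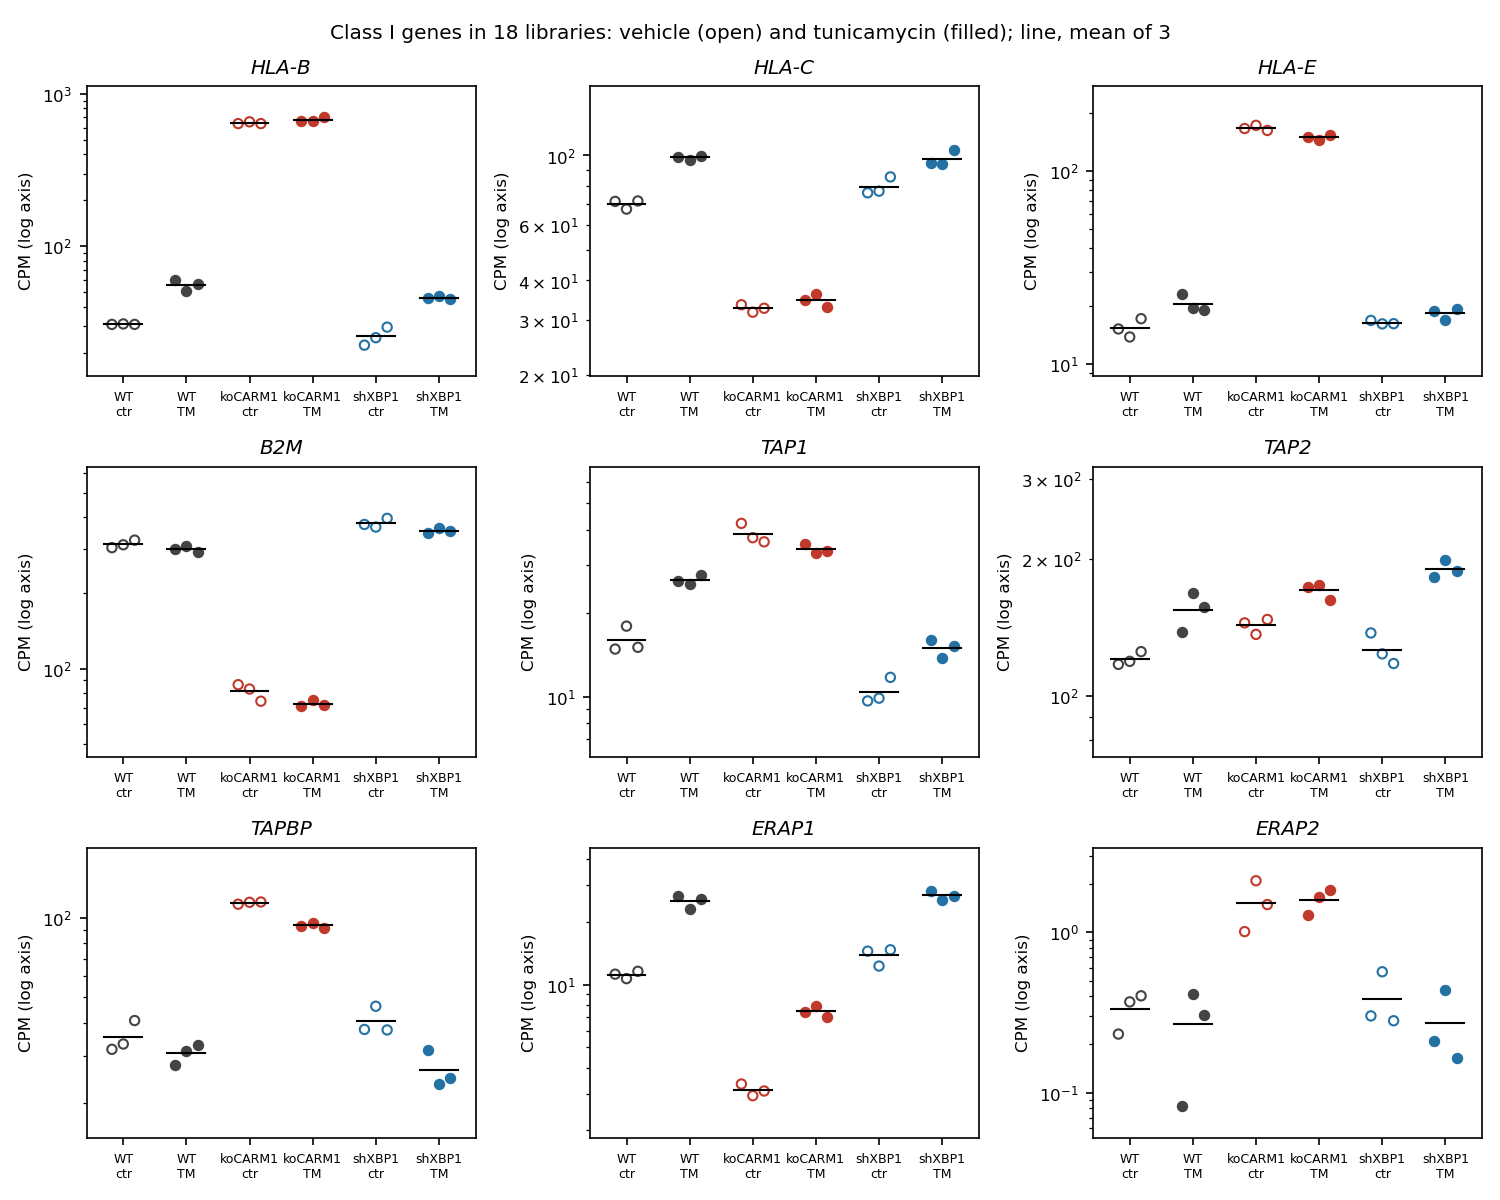
CPM (log axis, a separate scale in each panel) of the 9 members in each of the 18 libraries by group, with open circles for vehicle, filled circles for tunicamycin and a line at the mean of 3. The knockout libraries lie above all others for HLA-B, HLA-E, TAP1 and TAPBP and below all others for HLA-C, B2M and ERAP1. They also lie above for ERAP2, which passed the filter on low counts through these libraries alone and had to be higher there.

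The first question was how the pathway responded to ER stress in control cells. Tunicamycin raised 6 of the 9 members and lowered 0 (unadjusted p under 0.05 also for 6, all higher, and DESeq2 likewise called 6), where 22.0% of all tested genes were called higher and 19.9% lower at an FDR of 5%. Their median log2 fold change was 0.42, against 0 over all tested genes. The members that rose were the peptide trimmer ERAP1, the 3 heavy chains and both transporter subunits, while B2M and TAPBP did not pass the test.

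ERAP1 had the largest change. It stood at 11.22, 10.68 and 11.58 CPM with vehicle and at 26.53, 23.02 and 25.6 CPM with tunicamycin in the WT libraries. All 3 treated libraries were above all 3 untreated ones, 2.26-fold on the fitted scale (log2 fold change 1.18, SE 0.105, adjusted p = 1.34e-07). HLA-B, a classical heavy chain that presents peptides to T cells, had 30.87, 31.09 and 30.87 CPM with vehicle and 60.54, 50.84 and 57.05 CPM with tunicamycin. The untreated libraries were nearly equal, and the groups did not overlap (1.83-fold, log2 0.87, SE 0.0799, adjusted p = 1.82e-07).

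TAP1, the transporter subunit beside PSMB9, moved from 14.85, 17.98 and 15.07 CPM to 26.28, 25.58 and 27.42 CPM, again without overlap (log2 fold change 0.74, SE 0.102, adjusted p = 1.73e-05). Its partner TAP2 changed less, from 117.3, 119.1 and 125.1 CPM to 137.9, 168.7 and 156.5 CPM (0.37, SE 0.0702, adjusted p = 0.000421). The treated TAP2 libraries were the more spread, yet each exceeded every untreated one. HLA-C, the heavy chain that also serves as a ligand of natural killer cell receptors, went from 71.41, 67.49 and 71.65 CPM to 98.8, 96.97 and 99.97 CPM (0.50, SE 0.0605, adjusted p = 4.2e-06). For HLA-E, which presents leader peptides of other class I chains to NKG2A, values were 15.16, 13.78 and 17.14 CPM before and 22.95, 19.56 and 18.91 CPM after treatment. That rise had the largest adjusted p of the 6 (0.42, SE 0.116, adjusted p = 0.00736), and without the first treated library it was 0.32 with an adjusted p of 0.054.

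B2M, the light chain of every class I molecule, stood at 302.4, 310.5 and 324 CPM with vehicle and 298.1, 307.6 and 291.5 CPM with tunicamycin. Its ranges overlapped, and the 95% interval of the log2 fold change was −0.153 to 0.0508 around −0.05 (adjusted p = 0.48). TAPBP, which codes for tapasin, had a log2 fold change of −0.19 (interval −0.393 to 0.0119, adjusted p = 0.161), with 31.8 to 40.85 CPM before and 27.69 to 33.12 CPM after. ERAP2, the second trimming enzyme, had only 3 to 6 counts per library with vehicle and 1 to 5 with tunicamycin, too few to show a change at this depth.

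In the XBP1 knockdown cells the same treatment raised 5 members and lowered 1, against 19.2% and 19.0% of all tested genes. ERAP1 rose from 12.27–14.68 to 25.46–28.21 CPM (log2 fold change 0.95, SE 0.101, adjusted p = 1.91e-06) and HLA-B from 22.59–29.63 to 45.11–47.15 CPM (0.82, SE 0.0906, adjusted p = 2.78e-06). TAP2 (0.58, adjusted p = 1.35e-06), TAP1 (0.52, adjusted p = 0.00318) and HLA-C (0.29, adjusted p = 0.00199) also rose. TAPBP fell by 0.61 (SE 0.113, adjusted p = 0.000433), from 37.8, 46.26 and 37.64 CPM to 31.6, 23.44 and 24.75 CPM, with no overlap. HLA-E (0.16, interval −0.0334 to 0.354) and B2M (−0.11, adjusted p = 0.0665) did not pass.

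In the knockout cells 3 members rose and 2 fell, where 20.6% of all tested genes rose and 18.8% fell. ERAP1 again had the largest fold, from 3.34, 2.935 and 3.092 CPM to 7.378, 7.937 and 6.993 CPM (log2 1.28, SE 0.171, adjusted p = 2.42e-06), although its level stayed below that of untreated WT cells in all 3 treated libraries. TAP2 rose by 0.29 (adjusted p = 1.35e-05). HLA-B, already at 636.2 to 653.5 CPM, reached 658.6 to 700.9 CPM, a log2 fold change of 0.11 (SE 0.0324, adjusted p = 0.0117). TAPBP fell by 0.25 (adjusted p = 0.000102) and HLA-E by 0.13 (adjusted p = 0.0169).

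The small changes in knockout cells depended on single libraries. Without the first vehicle library the HLA-B change was 0.10 (adjusted p = 0.0504), and without the third tunicamycin library 0.08 (adjusted p = 0.106). That of HLA-E was −0.11 (adjusted p = 0.0998) without the second tunicamycin library. B2M (−0.13, adjusted p = 0.061) was called lower once the third vehicle library was left out (−0.19, adjusted p = 0.0137). TAP1 did not rise there: 42.33, 37.57 and 36.3 CPM with vehicle stood against 35.6, 33.02 and 33.61 CPM with tunicamycin (−0.16, interval −0.303 to −0.00817, adjusted p = 0.11). Its unadjusted p by edgeR was 0.0513, so the approximate interval is too narrow to be read as a test. HLA-C was 31.7 to 33.48 CPM before and 32.82 to 36.19 CPM after treatment (0.12, adjusted p = 0.219).

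**Figure D2:**
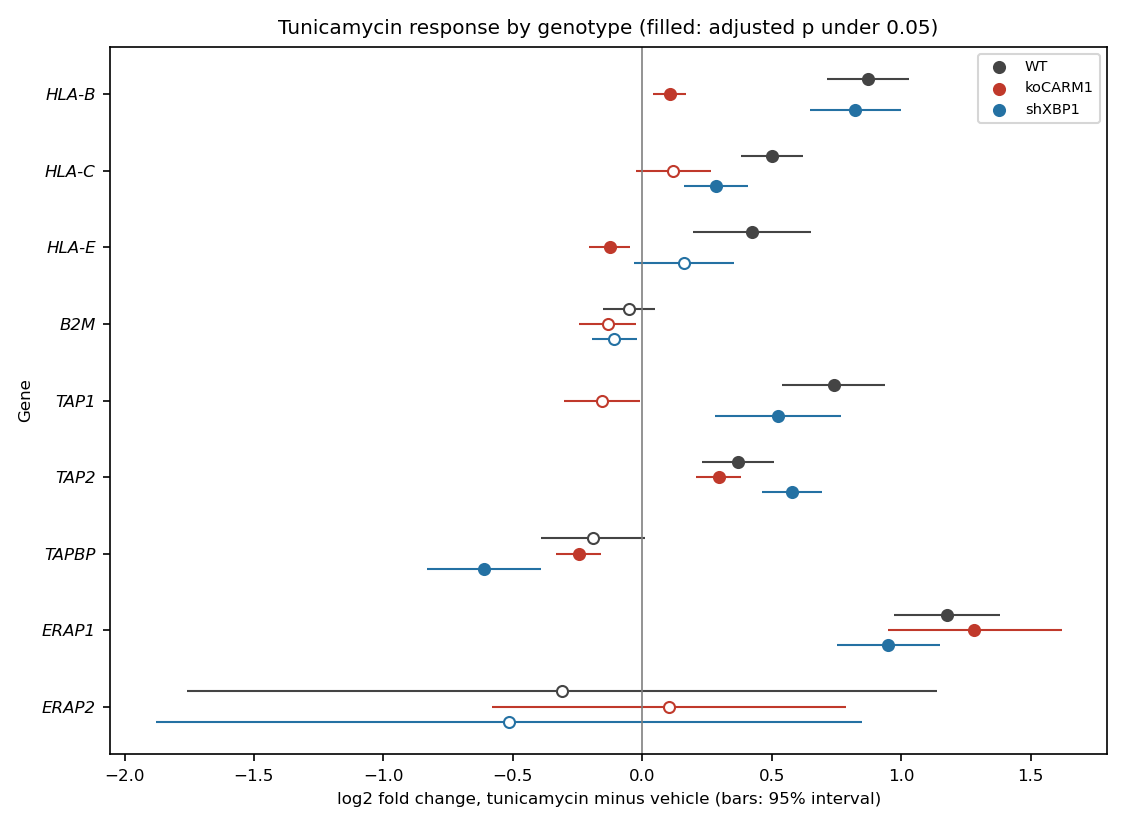
Log2 fold change of each member with tunicamycin against vehicle in WT (grey), koCARM1 (red) and shXBP1 (blue) cells, with 95% intervals and filled points for an adjusted p under 0.05. ERAP1 lies near 1 in all 3 genotypes, and the red points for HLA-B, HLA-C, HLA-E and TAP1 lie nearer to 0 than the grey ones or below it.

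Whether the response differed between genotypes was tested as an interaction. Between knockout and WT cells, 4 members had a lower tunicamycin response in the knockout and 0 a higher one (4 also by DESeq2, and 4 at an unadjusted p under 0.05, all lower), where 12.4% of all tested genes were called lower and 10.5% higher. The higher share of all calls was thus 45.8%, but 57.7% with no filter on low counts and 57.2% with at least 10 counts in every library. The log2 difference of responses was −0.91 for TAP1 (SE 0.123, adjusted p = 1.33e-05), −0.78 for HLA-B (SE 0.0774, adjusted p = 2.81e-07), −0.56 for HLA-E (SE 0.108, adjusted p = 0.000592) and −0.40 for HLA-C (SE 0.0852, adjusted p = 0.00153). For HLA-B and HLA-E the knockout level before treatment was 20.1 and 10.5 times that of WT cells. HLA-B gained 25.2 CPM on average with tunicamycin in WT cells and 32.3 CPM in knockout cells, while the change in TAP1 was 10.5 CPM in the former and −4.65 CPM in the latter. ERAP1 (0.09, interval −0.265 to 0.437) and TAP2 (−0.09, interval −0.267 to 0.0787) did not differ detectably in their response.

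Between XBP1 knockdown and WT cells, 0 members differed in response by edgeR and 0 by DESeq2, where 0.364% of all tested genes were called higher and 1.67% lower. At an unadjusted p under 0.05 there were 3, namely TAPBP (−0.41, interval −0.74 to −0.0861), HLA-C (−0.21, interval −0.377 to −0.0422) and TAP2 (0.22, interval 0.0243 to 0.409), with adjusted p-values of 0.259, 0.263 and 0.338. For HLA-B the difference of responses was −0.04 (interval −0.281 to 0.2).

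The second question was how the genotypes differed. In vehicle-treated knockout cells, of the 8 members other than ERAP2, 5 were higher and 3 lower than in WT cells. Like them, 15665 genes passed the filter on low counts also without the knockout libraries, and 32.0% of these were higher and 40.8% lower. Over all tested genes 37.5% were higher and 36.9% lower. Being called is thus common here, and the sizes are described. HLA-B stood at 636.4, 653.5 and 636.2 CPM in the knockout libraries against about 31 CPM in WT ones, which is 20.1-fold higher (log2 4.33, SE 0.0496, adjusted p = 3.27e-18). HLA-E stood at 166.2, 172.6 and 162.4 CPM against 15.16, 13.78 and 17.14 CPM, 10.5-fold higher (3.39, SE 0.0737, adjusted p = 1.81e-15). The knockout libraries were far above the others for both heavy chains.

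HLA-C went the other way, with 33.48, 31.7 and 32.63 CPM in knockout against 71.41, 67.49 and 71.65 CPM in WT libraries (log2 fold change −1.15, SE 0.0659, adjusted p = 2.67e-10). B2M, with which each of these chains pairs, was at 86.3, 82.93 and 74.2 CPM against 302.4, 310.5 and 324 CPM, 3.96-fold lower (−1.98, SE 0.0578, adjusted p = 6.41e-14). The groups were far apart for both genes, so the knockout libraries held more HLA-B and HLA-E transcript and less HLA-C and B2M transcript.

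Within the loading complex TAPBP was raised most, at 112.5, 114.4 and 114.7 CPM against 31.8, 33.3 and 40.85 CPM (log2 1.64, SE 0.079, adjusted p = 3.16e-11). TAP1 was at 42.33, 37.57 and 36.3 CPM against 14.85, 17.98 and 15.07 CPM (1.24, SE 0.099, adjusted p = 1.54e-08). TAP2, whose protein pairs with that of TAP1, differed much less (0.20, SE 0.0518, adjusted p = 0.00274), with 136.5 to 147.2 CPM against 117.3 to 125.1 CPM.

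The trimming enzymes split as well. ERAP1 was at 3.34, 2.935 and 3.092 CPM in knockout libraries, 3.67-fold below WT (−1.88, SE 0.154, adjusted p = 2.16e-08). ERAP2 had 13, 25 and 13 counts in these libraries against 3, 5 and 6 in WT ones (2.10, SE 0.482, adjusted p = 0.00104). It passed the filter on low counts through the knockout libraries alone, so that its difference adds nothing to the count of members.

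Under tunicamycin the same directions held between knockout and WT cells for each of the 8 members other than ERAP2. Of all tested genes, 38.4% were higher and 36.8% lower, those that passed the filter through the knockout libraries alone included. The comparison with vehicle shares no library with this one. Both set koCARM1 cells against WT cells, so the match of directions is not an independent repeat. HLA-B was 12.1-fold higher (log2 3.59, SE 0.0592, adjusted p = 2.64e-16), HLA-E 7.35-fold (2.88, adjusted p = 1.82e-14) and TAPBP 3.06-fold (1.61, adjusted p = 1.47e-11). TAP1 was above WT by 0.37 (SE 0.0753, adjusted p = 0.000393). B2M was lower by 2.04 on the log2 scale (adjusted p = 1.36e-14), ERAP1 by 1.74 (adjusted p = 1.19e-09) and HLA-C by 1.51 (adjusted p = 6.07e-12). TAP2 was at the threshold (0.15, SE 0.0651, adjusted p = 0.0468), with overlapping ranges, and it lost its call without the first WT library (0.09, adjusted p = 0.116), without the first knockout library (0.14, adjusted p = 0.14), without the second (0.13, adjusted p = 0.151) and with the replicate number as a block (0.16, adjusted p = 0.0541). ERAP2 had 15 to 23 counts against 1 to 5.

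**Figure D3:**
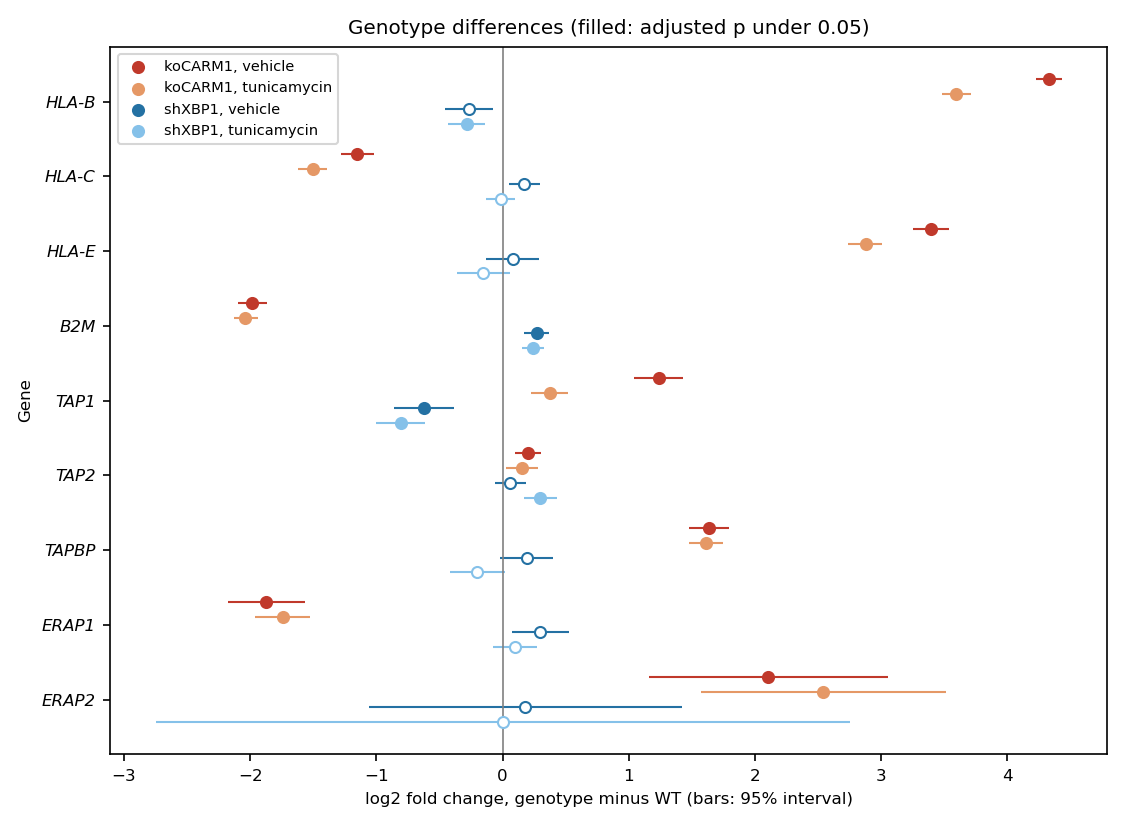
Log2 fold change of each member in koCARM1 cells (red, orange) and shXBP1 cells (dark and light blue) against WT cells under vehicle and tunicamycin, with 95% intervals and filled points for an adjusted p under 0.05. Knockout differences run from −2.04 for B2M to 4.33 for HLA-B, while those of the knockdown lie between −0.81 and 0.30.

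In the XBP1 knockdown cells under vehicle, 1 member was higher and 1 lower than in WT cells, against 2.07% and 3.03% of all tested genes. B2M was at 374, 365.2 and 395.5 CPM in knockdown libraries, above the 302.4 to 324 CPM of WT (log2 0.27, SE 0.0498, adjusted p = 0.00544). TAP1 was at 9.639, 9.862 and 11.73 CPM, below every WT library (−0.62, SE 0.122, adjusted p = 0.00773). Without the second WT vehicle library, the highest of that group for TAP1, the difference was −0.53 with an adjusted p of 0.0569. HLA-B had a value of −0.27 (adjusted p = 0.136) and passed the test when the third knockdown library was left out (−0.37, adjusted p = 0.0474).

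Under tunicamycin, 2 members were higher and 2 lower, against 6.99% and 8.55% of all tested genes. TAP1 was at 16.08, 13.78 and 15.23 CPM, against 26.28, 25.58 and 27.42 CPM in WT cells (−0.81, SE 0.0985, adjusted p = 3.83e-05), and so did not exceed the range of untreated WT cells. B2M was again higher (0.24, SE 0.0445, adjusted p = 0.00159) and TAP2 was higher by 0.30 (SE 0.0657, adjusted p = 0.00575). TAP1 and TAP2, the subunits of 1 transporter, thus differed from WT in opposite directions. HLA-B was lower by 0.29 on the log2 scale (SE 0.0736, adjusted p = 0.0151), a call lost without the first WT library (−0.23, adjusted p = 0.054), without the third (−0.27, adjusted p = 0.0705) or without the third knockdown library (−0.27, adjusted p = 0.0645). TAPBP (−0.20, adjusted p = 0.267) passed without the first knockdown library (−0.35, adjusted p = 0.0342). The same WT libraries served both genotypes, so the comparisons with WT are not independent of each other.

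Ordered by level over the 6 groups, HLA-B ran from koCARM1.TM at 674.3 CPM over koCARM1.ctr, WT.TM, shXBP1.TM and WT.ctr to shXBP1.ctr at 25.83 CPM, and no neighbours in this order overlapped. Such an order is not a test, since ranges were apart for 23.6% of all tested genes between shXBP1.ctr and WT.ctr. Between koCARM1.TM and koCARM1.ctr they were apart for 48.4%. HLA-B (adjusted p = 0.136 by edgeR) and ERAP1 (0.17) did not pass between shXBP1.ctr and WT.ctr. For ERAP1 the order was shXBP1.TM (26.75 CPM), WT.TM, shXBP1.ctr, WT.ctr, koCARM1.TM and koCARM1.ctr (3.122 CPM), with overlap between the first and second groups only. TAP1 ran from koCARM1.ctr (38.73 CPM) to shXBP1.ctr (10.41 CPM), with overlap between WT.ctr and shXBP1.TM. Its ranges in koCARM1.ctr and koCARM1.TM were apart, but the difference did not pass (adjusted p = 0.11 by edgeR). TAP2 had the narrowest order, from 189.8 CPM in shXBP1.TM to 120.5 CPM in WT.ctr, with overlap between all neighbours after the highest group. For HLA-C the tunicamycin groups of WT and shXBP1 overlapped at the top, and the knockout groups overlapped at the bottom. B2M was highest in shXBP1.ctr (378.3 CPM) and lowest in koCARM1.TM (72.44 CPM), with overlap between treatments in WT and in knockout cells. For HLA-E the WT.TM and shXBP1.TM groups overlapped, as did shXBP1.ctr and WT.ctr, and for TAPBP the WT and shXBP1 groups overlapped their neighbours among each other.

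Over the 18 libraries, which share 6 group means, the log2 levels of HLA-B and HLA-E correlated at 0.991, and those of HLA-B and B2M at −0.986. TAP1 and TAP2 correlated at 0.281. The genes most like HLA-B among genes averaging 3 or more in log2 CPM were TAF13 (Pearson r 0.997), EPM2AIP1 (0.996) and SNAPC1 (0.996), those most like B2M were RPL17 (0.998), YOD1 (0.997) and GALNT4 (0.996), and those most like TAP1 were MYO6 (0.98), FLNA (0.975) and KRT18 (0.964). The knockout libraries set apart most of these points, and the values describe them only.

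TAP1 was next set beside PSMB9, whose gene starts beside it on the other strand, and beside regulators that raise both. In WT cells with tunicamycin PSMB9 rose from 7.39 ± 0.896 to 10.3 ± 0.712 CPM (SD, n = 3; log2 0.49, edgeR adjusted p = 0.0111) and in knockdown cells from 4.64 ± 0.183 to 6.50 ± 0.579 CPM (0.48, adjusted p = 0.0323). Like TAP1 it was lower in knockdown than in WT cells, by 0.68 under vehicle (adjusted p = 0.023) and by 0.66 under tunicamycin (adjusted p = 0.00607). In knockout cells it did not rise (−0.22, adjusted p = 0.164), and its interaction was −0.73 (adjusted p = 0.0057). The PSMB9 gene model overlaps that of TAP1 over 8608 bases on the opposite strand. Whether the counting used strand is not given in the sources used here, and a part of shared reads in this likeness was not tested.

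IRF1, the interferon regulatory factor, rose with tunicamycin from 12.3 ± 1.11 to 30.1 ± 2.41 CPM in WT cells (SD, n = 3; log2 1.30, edgeR adjusted p = 4.52e-08) and from 14.3 ± 1.31 to 27.7 ± 1.97 CPM in knockdown cells (0.95, adjusted p = 2.07e-06). In knockout cells it was at 16.6 ± 1.95 and 18.1 ± 0.674 CPM (0.15, adjusted p = 0.263), and the interaction was −1.16 (SE 0.147, adjusted p = 6.49e-06). NLRC5, the activator of class I genes, had 1 to 12 counts in every WT and knockdown library and 20 to 70 in knockout ones. It passed the filter on low counts through the knockout libraries alone and had to be higher there. Within the knockout cells tunicamycin lowered NLRC5 by 0.91 (edgeR adjusted p = 0.00476).

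**Figure D4:**
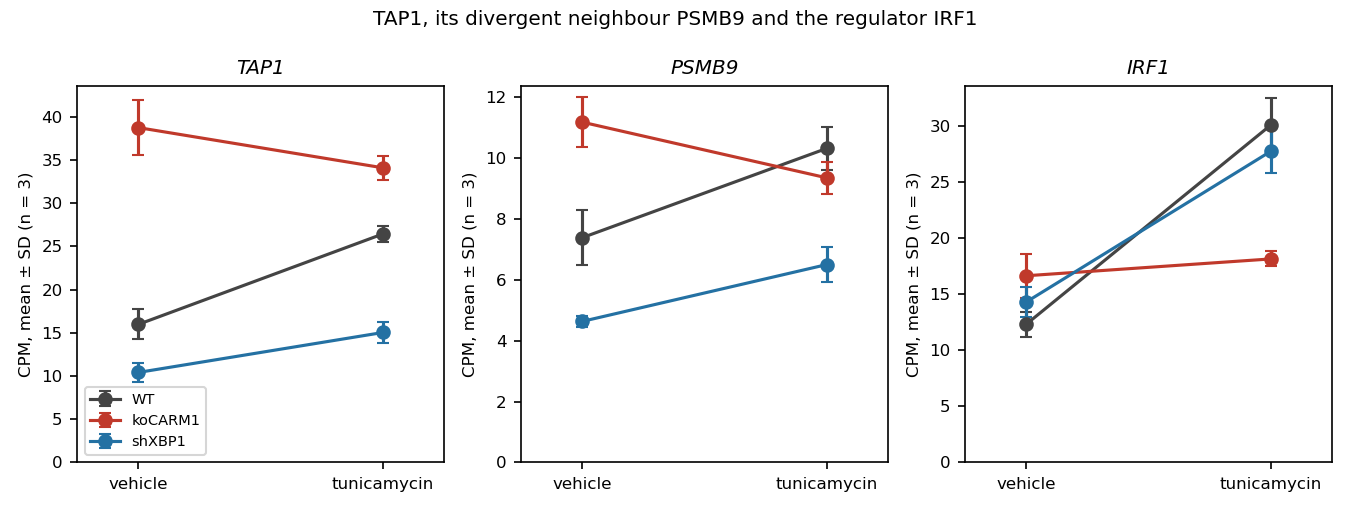
Mean CPM with SD (n = 3) of TAP1, PSMB9 and IRF1 with vehicle and tunicamycin in WT (grey), koCARM1 (red) and shXBP1 (blue) cells, on linear axes from 0. TAP1 and PSMB9 rise in WT and knockdown cells and not in knockout cells, and IRF1 rises to about 30 CPM in the first 2 genotypes and stays below 19 CPM in the knockout mean.

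The wider pathway was described by counts over lists. Of the 21 tested interferon-stimulated genes, tunicamycin raised 2 and lowered 4 in WT cells (median log2 fold change −0.18, against 0 over all tested genes, of which 22.0% rose and 19.9% fell). IFI35 rose (1.07) and IFIT1 fell (−1.39, adjusted p = 5.24e-09), so that the interferon-stimulated genes did not follow HLA-B and TAP1 as a list. Of the 22 regulators of class I transcription, 8 rose and 5 fell, IRF1 (1.30) and RFXAP (0.70) most among the former and the receptor chains IFNGR2 (−1.10) and IFNAR2 (−0.90) among the latter. Of the 13 other loading and trimming factors, 8 rose and 3 fell in WT cells, to be read against the same 22.0% and 19.9% of all tested genes, as are the regulators. CALR rose by 1.10, 1.34 and 1.15 in WT, knockout and knockdown cells, PDIA3 by 1.02, 1.35 and 0.91, and CANX by 0.82, 0.87 and 0.78. These 3 chaperones, which also serve the folding of other glycoproteins, thus rose in the knockout cells. Among the members, ERAP1, TAP2 and HLA-B also rose there and TAPBP and HLA-E fell. HLA-C, B2M, TAP1 and ERAP2 did not pass the test.

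In the knockout cells with vehicle, 82 of the 124 other tested genes of the MHC region of chromosome 6 were higher and 16 lower, where 37.5% of all tested genes were higher and 36.9% lower. Of the 124, 18 passed the filter on low counts through the knockout libraries alone, and all 18 were higher. Of the 106 that also passed it without those libraries, 64 were higher and 16 lower, against 32.0% and 40.8% of all 15665 genes that did so. Of the 6 tested neighbours of ERAP1 and ERAP2 within 500000 bases on either side, 1 was higher and 3 lower, too few to set against the same 37.5% and 36.9%. The immunoproteasome gene PSMB8 lies between TAP2 and TAP1. It had 0 to 8 counts in every WT and knockdown library and 277 to 472 in the knockout ones. PSMB8 too passed the filter through the knockout libraries alone and had to be higher there. HLA-F had 7 to 19 counts in the WT and knockdown libraries and 295 to 424 in the knockout ones. Of 7 tested MHC class II genes, 3 passed the filter through the knockout libraries alone and had to be higher there, and of the other 4, 3 were higher. These 4 are too few to set against the 32.0% higher of all genes that passed it without those libraries.

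The HLA genes differ between people and resemble each other, and reads were assigned to the reference alleles. The part of read assignment in the heavy chain differences was not tested. In the last 500 bases of the reference transcripts, 0% of the 75-base windows of HLA-B, 2.23% of those of HLA-C and 0.901% of those of HLA-E were also found in another gene. The alleles of A1847 were not analysed here. TAP2 shares 20.5% of such windows with a readthrough gene that had 0 counts. ERAP1 overlaps CAST on the opposite strand over 18786 bases, and CAST had 37278 counts over the 18 libraries against 3362 for ERAP1. ERAP2 lies within the span of an antisense RNA gene (ENSG00000247121) with 168 counts against its own 160. Without strand, reads of such pairs cannot be told apart, and the share of such reads was not tested.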

How the data were processed

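RNA from A1847 cells was measured in 18 libraries of 6 groups by 3′ mRNA sequencing with 75 nt single reads. The authors aligned reads to hg19 with bowtie2 and deposited RSEM expected counts per Ensembl gene, as whole numbers without normalization. The RSEM version differs between the study's methods and the submitters' processing notes (1.2.3 in the latter). The annotation release and the use of strand are not given in the sources used here. Library totals were 9367462 to 13917212. Between replicates, chi-square per degree of freedom was 1.84 to 7.47 over 18 pairs, above counting error, so precision was taken from the replicates.

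Symbols and GRCh37 positions were found for 55501 of 57736 genes. Counts were fitted in R 4.3.3 with edgeR 4.0.16 (filterByExpr with a minimum count of 10 over all libraries, TMM, quasi-likelihood F tests on the compared groups alone), with Benjamini-Hochberg adjustment across 17317 genes and calls at 0.05. Each SE was taken as the absolute log2 fold change over the root of its F statistic. Log2 CPM used a prior count of 2. Exact permutation over 3 and 3 libraries cannot pass the threshold for a single gene and was not used. Alternatives were DESeq2 1.42.0, its size factors, a fit of unfiltered genes, a stricter minimum of 10 counts in each library, 1 fit over the 18 libraries, the replicate number as a block, and leaving out each library. The scripts were tested on simulated data. Promoters came from RefSeq. The members, gene lists and tests were chosen with earlier results of these data known. All 9 members were named in every comparison. From other lists only some of the called genes with the largest changes in each direction were named, or genes given as background. Other gene names (PAX8, COL1A1 and the most alike genes) came from the marker lists and the likeness rule. The listed symbols DDX58 and PECAM1 were not matched. CUT&RUN data were not analysed here. Some listed genes are not reported here.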

Additional observations from a re-analysis of the deposited data

Results flagged for a closer look

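For 4 members the response to tunicamycin differed between CARM1 knockout and WT cells by edgeR's interaction term. Of all tested genes, 12.4% were called lower and 10.5% higher by the same term. The log2 difference, knockout minus WT, was −0.784 for HLA-B (SE 0.0774, adjusted p = 2.81e-07), −0.4017 for HLA-C (SE 0.0852, adjusted p = 0.00153), −0.5641 for HLA-E (SE 0.108, adjusted p = 0.000592) and −0.9133 for TAP1 (SE 0.123, adjusted p = 1.33e-05). On the log2 scale the response of these 4 was higher in WT than in knockout cells, but in CPM HLA-B gained 25.2 in WT and 32.3 in knockout cells. The 6 knockout libraries stand apart from the others over all genes, and their part in these differences was not tested. The groups held 3 libraries each, so no single library could be tested for lying far from its group.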

How the results depend on the processing

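Under the 6 alternative settings and with each library left out, 0 members changed direction while called. The number of members called was within 1.5 times of the reported one in each setting with 1 exception. With libraries left out it was 5 to 6 for tunicamycin in WT, 4 to 6 in knockout and 6 in knockdown cells, 9 for the knockout against WT under vehicle and 8 to 9 under tunicamycin (both counting ERAP2, which passed the filter through the knockout libraries alone), 1 to 3 for the knockdown under vehicle and 3 to 5 under tunicamycin, and 4 and 0 for the knockout and knockdown interactions. The exception was the knockdown under vehicle, where 1 member was called without the second WT vehicle library, since TAP1 then missed the threshold (−0.53, adjusted p = 0.0569). Among single members, 14 calls changed with a library left out and 5 with another setting, all given with their values in the text except that, with all libraries in one fit, HLA-B with tunicamycin in knockout cells lost its call (0.07, adjusted p = 0.36), B2M gained one (−0.17, adjusted p = 0.0201) and HLA-B in the knockdown under vehicle gained one (−0.26, adjusted p = 0.0386). B2M in knockout cells also gained one with at least 10 counts in every library (−0.15, adjusted p = 0.0317). The causes were not tested. Same-numbered replicates deviated from their group means without relation (correlations −0.048 to 0.0387), so the numbers do not pair the libraries, and with the replicate block 1 call changed, that of TAP2 in the knockout under tunicamycin (0.16, adjusted p = 0.0541), leaving 8 of 9 members called there, ERAP2 again counted. The stricter count minimum gave no value for ERAP2, which has 1 to 8 counts outside the knockout. The share of higher among all interaction calls in the knockout moved from 45.8% to 57.7% with no filter and to 57.2% with at least 10 counts in every library, and in the knockdown from 17.8% to 36.8% with no filter. Depth limits ERAP2 most.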
